A study of Drosophila melanogaster with 18 samples.

Results

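Cytoplasmic ribosomal protein genes are described here in whole Drosophila melanogaster embryos in which genes of the E2F/Rb pathway were overexpressed or mutated. Members were the probe sets whose annotated symbol begins with RpL, RpS or RpLP and a digit, or is Rack1 or sta, with mitochondrial ribosomal protein genes left out. The symbol rule found 40 of the 13966 probe sets on the array, which stand for 38 genes. RefSeq lists 94 genes that meet the same symbol rule, so 56 of them were not analysed here, sta among them. Of the 40 probe sets, 38 were annotated to 1 gene and 2 to several. The member genes lie on chromosome arms 2L (9 genes), 2R (9), 3L (4), 3R (13) and X (3), per the Release 6 annotation.

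The ribosome is built from a small and a large subunit, each made of ribosomal RNA and of proteins that are needed in nearly equal numbers. The mRNAs of these proteins are among the most abundant in any growing cell, and in Drosophila many of them share a pyrimidine-rich element at the start site. Mutations that lower the dose of a single ribosomal protein gene give the Minute phenotype, with thin bristles and slow development. E2f1 and E2f2 are transcription factors that bind DNA with their partner Dp, and Rbf1, the fly retinoblastoma protein, binds and restrains them.

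RNA from 18 samples of about 200 to 700 pooled embryos each, from 2 h collections kept at 25 °C, was hybridised to Affymetrix arrays in 9 groups of 2. In 6 of the groups the Arm-Gal4 driver, which carries the promoter of the broadly expressed gene armadillo, was crossed to another stock. At 8 to 10 h these crosses were to yw (the control), to E2f1/Dp, to E2f2/Dp, to Rbf1 and to E2f1336-805, a dominant negative E2f1 fragment without its DNA-binding domain. At 14 to 16 h there was the same yw control cross. The other 3 groups held null mutants without the driver. Dpa2/Dpa4 embryos of 8 to 10 h came from parents balanced with CyO[Kr-GFP], and E2f17172/E2f191 embryos of 8 to 10 h and of 14 to 16 h from parents balanced with TM3[Kr-GFP]. Mutants of 8 to 10 h were picked by a COPAS embryo sorter and those of 14 to 16 h by hand under a fluorescence microscope. Mutant and control embryos differed in driver, stock background and selection as well as in genotype, and these cannot be told apart. Nothing in the labels tells whether both samples of a group came from different embryo collections. The p-values then reflect the scatter of these samples alone, which may be technical. In RNA from whole embryos, fewer cells of a kind and less RNA per cell cannot be told apart.

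The manipulated genes were read on the same arrays, in deposited signal. E2f1 stood at 9991 and 6413 in E2f1/Dp embryos against 2681 and 1318 in the 8 to 10 h control, and at 350.5 and 820.2 in E2f1 mutants of that age. Later the E2f1 mutants, at 543.4 and 421.1, stood below the 14 to 16 h control at 583.4 and 563.7. E2f2 reached 20547 and 21201 in E2f2/Dp embryos against 2431 and 1940 in the control, and Dp stood at 512.5 and 695.8 in Dp mutants against 2122 and 1615. Rbf was at 2271 and 1999 in Rbf1 embryos against 323.5 and 248.3. E2f1 was also high on the Rbf1 arrays, at 3233 and 8814. Where on each gene the probes lie was not used, so a null allele need not empty its probe set. Of 8 listed tissue markers 5 were tested: elav (neurons), repo (glia), grh (epidermis), GATAe (endoderm) and vas (germ cells). In the 8 to 10 h control elav read 1420 and 2586.

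Signal is the linear brightness of a probe set as deposited, and brightness depends on the probes, so levels of different genes were not ranked. Changes were tested on log2 values after quantile normalization, which gives all arrays the same distribution, with limma across all 8975 units that remained after dim probe sets were left out. A unit is a gene's brightest probe set, and a gene was called changed at a Benjamini-Hochberg adjusted p under 0.05. Of the 40 ribosomal protein probe sets 35 were tested, 14 of the small and 21 of the large subunit. Their median within-group SD was 0.24 on the log2 scale against 0.349 over all units, which were not matched in brightness. RpLP2 varied least (0.071) and RpL17 most (0.93). RpL32 (0.577), RpL10Ab (0.423), Rack1 (0.401) and RpL3 (0.399) also varied more than the median unit, and RpS18 (0.319) less.

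The other 5 probe sets were too dim to be tested in the main fit. RpL10Aa ranged from 2.1 to 67.1 in signal, RpL22-like from 12.4 to 49.4, RpS28a from 16.8 to 128.9 and RpS19b from 37.7 to 255.3. The probe set shared by CG14645 and RpL36A ranged from 6.9 to 275.1. RpS19b, one of a pair of RpS19 genes, read 104.9 and 255.3 in Dp mutants and 234.3 and 208.1 in 8 to 10 h E2f1 mutants, against 37.7 and 55.4 in the control. The E2f1/Dp arrays, at 136.1 and 105.1, also stood above that control. The main fit did not test these values, and their results in the fit without a filter on dim probe sets are not given.

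The 18 arrays differed in brightness at the top of the scale, where most ribosomal protein probe sets lie, although their trimmed means were alike at 495.5 to 497.8. As a measure of this brightness, the signal that 0.1% of the probe sets outside the group exceed stood lowest in the Rbf1 group, at 15894 and 13196. On the array 1196 probe sets have no gene name here. Whether some of them are ribosomal protein genes was not tested, so the measure may not be independent of the group. The other 8 to 10 h driver arrays gave 22907 and 25205 for the control, 18678 and 23350 for E2f1/Dp, 26422 and 26320 for the E2f1 fragment, and 26450 and 27498 for E2f2/Dp. Mutant and 14 to 16 h arrays were all brighter by this measure. The same measure read 30759 and 33352 for Dp mutants, 38940 and 40180 for E2f1 mutants of 8 to 10 h, 32161 and 32353 for the 14 to 16 h control, and 35497 and 30400 for E2f1 mutants of that age. No 8 to 10 h driver array reached the lowest of these 8 arrays by this measure. At a lower cut-off, exceeded by more of the same probe sets, the arrays overlapped. There the first Dp mutant array stood at 15348 and the first E2f1 fragment array at 15710.

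Ribosomal protein signal followed a similar course. Of the tested members, 25 had a median signal above 10000, and the median of these brighter members was 20147 and 22742 in the 8 to 10 h control. It was 11937 and 6784 on the Rbf1 arrays, and 27830 to 36206 on the 8 mutant and 14 to 16 h arrays. Quantile normalization brought this median to between 23106 and 27029 on the 16 arrays outside the Rbf1 group, but to 19205 and 8264 on the Rbf1 arrays. The 40 probe sets took 3.05% and 2.28% of the summed signal of the Rbf1 arrays, 4.12% to 6.21% on the other driver arrays of 8 to 10 h, and 6.8% to 8.88% on the rest.

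**Figure D1:**
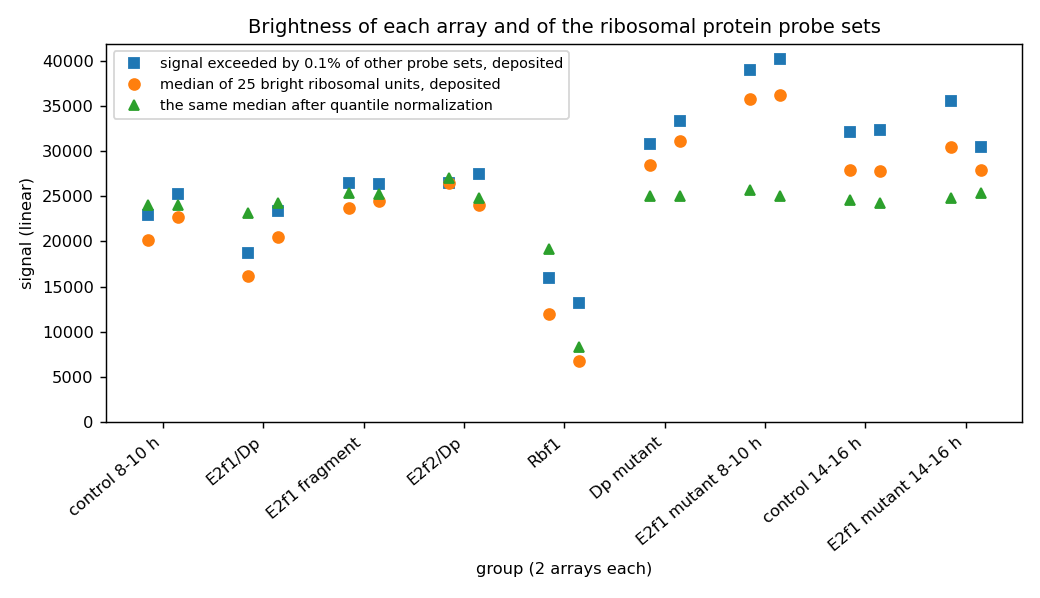
For each of the 18 arrays (2 per group, horizontal axis), the signal exceeded by 0.1% of other probe sets, the median deposited signal of the 25 brighter ribosomal protein units, and that median after quantile normalization, all as linear signal. Some of the other probe sets have no gene name here. The deposited measures follow a similar course, and the normalized median is level, from 23106 to 27029, except on the Rbf1 arrays at 19205 and 8264.

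Rbf1 embryos showed lower ribosomal protein signal than the control cross. Of the 35 tested members 13 fell and 0 rose, where over all units 0.724% fell and 0.713% rose. The largest falls were those of RpL17, RpL32 and Rack1, at least 20 times below the control on the normalized scale for RpL17, and 14.7 and 9.27 times for RpL32 and Rack1. The median change of the 35 members was -0.62 on the log2 scale, beside 0.01 over all units. At an unadjusted p under 0.05 the count was 21 of the 35 members, beside 1182 of all 8975 units.

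Among small subunit genes, 4 of 14 fell in Rbf1 embryos. Rack1, a beta-propeller protein of the small subunit that also anchors protein kinase C, read 5291 and 1891 on the Rbf1 arrays against 22392 and 26719 in the control. Its log2 change was -3.21 ± 0.33 (SE of the limma fit, n = 2 against 2, limma adjusted p = 9.02e-05). That SE draws on the spread in all 9 groups. After normalization Rack1 read 5613 and 1788 on the Rbf1 arrays. RpS18, a protein of the small subunit's head, read 6379 and 3162 against 17990 and 25296 (-2.31 ± 0.28, limma adjusted p = 0.000371). Both genes had the Rbf1 arrays far below both control arrays.

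Smaller falls were seen for RpS21, at 10569 and 6351 against 20147 and 20099, and for RpS28b, at 9806 and 6784 against 21343 and 17746. Their limma adjusted p-values were 0.0198 and 0.0252. The groups did not overlap for either gene. RpS7 and RpS20 missed the threshold. RpS7 read 11937 and 5518 against 22375 and 26649 (-1.38 ± 0.33, limma adjusted p = 0.0519). RpS20 read 13091 and 6087 against 23970 and 23932 (-1.14 ± 0.34, limma adjusted p = 0.128). RpS26, RpS15 and RpS30 had log2 changes of -0.65, -0.53 and -0.43, with limma adjusted p-values of 0.178, 0.214 and 0.196.

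In the large subunit 9 of 21 units fell. RpL17, a protein near the end of the exit tunnel, read 38.2 and 95.7 on the Rbf1 arrays and 1066 and 1914 in the control (-4.32 ± 0.73, limma adjusted p = 0.00716). The first Rbf1 value lay under the floor of 47.5 applied before the test and was set to it, so the size of this fall is a lower bound. RpL32, widely used as a reference gene in quantitative PCR of flies, read 2683 and 628.6 against 16549 and 19390 (-3.87 ± 0.46, limma adjusted p = 0.000371). RpL32 was far lower on the second Rbf1 array than on the first, and both lay below every other array.

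RpL3, which reaches close to the peptidyl transferase centre, read 6233 and 2612 against 17937 and 22872 (-2.36 ± 0.33, limma adjusted p = 0.00138). RpL10Ab, a protein of the L1 stalk, read 6860 and 2500 against 17355 and 19738 (-2.16 ± 0.35, limma adjusted p = 0.00488). Neither gene's groups overlapped. RpL37A, a zinc-binding protein of the large subunit, read 2138 and 1983 against 7938 and 5829 (-1.76 ± 0.31, limma adjusted p = 0.00866). RpL28 read 3048 and 3402 against 5860 and 4599, and its log2 change of -0.69 ± 0.17 missed the threshold (limma adjusted p = 0.0519).

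The acidic stalk, which recruits elongation factors to the ribosome, is formed by RpLP0, RpLP1 and RpLP2, and all 3 fell. RpLP1 read 8380 and 3956 against 13930 and 17189 (-1.27 ± 0.28, limma adjusted p = 0.0315). RpLP0 read 11317 and 7578 against 19742 and 25032 (-0.99 ± 0.21, limma adjusted p = 0.0259). RpLP2 read 13207 and 10526 against 25745 and 26865 (-0.62 ± 0.14, limma adjusted p = 0.0348). In each of the 3 both Rbf1 arrays lay below both controls, as in 20.7% of all units after quantile normalization. RpLP2 fell least, while also being the member with the smallest spread. A second probe set, shared by euc and RpLP0, ranged from 42.5 to 261 over all arrays and did not pass.

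RpL40 and RpS27A are made as fusions to ubiquitin, so that their mRNAs also supply free ubiquitin. RpL40 read 6301 and 6453 on the Rbf1 arrays against 18873 and 20343 (-1.56 ± 0.19, limma adjusted p = 0.000456). RpS27A read 5693 and 4438 against 10582 and 12369 (-1.15 ± 0.30, limma adjusted p = 0.0765). The groups were apart for both fusions, and RpL40 was alike on both Rbf1 arrays.

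Other large subunit genes had smaller values. RpL23 and RpL27 had positive normalized changes of 0.39 and 0.23, while RpL29, RpL39 and RpL37-1 had negative ones that did not pass. RpL27 read 14019 and 16707 on the Rbf1 arrays against 21199 and 23582. RpL23 read 12513 and 9919 against 16894 and 12227, with overlapping arrays. Both genes had lower deposited means on the Rbf1 arrays, so their positive values came with quantile normalization. RpL39 read 5520 and 6254 against 8802 and 7607. RpL23 and RpL36A had narrow ranges over all 18 arrays, 9919 to 19179 and 14762 to 31962, and neither passed in any comparison.

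**Figure D2:**
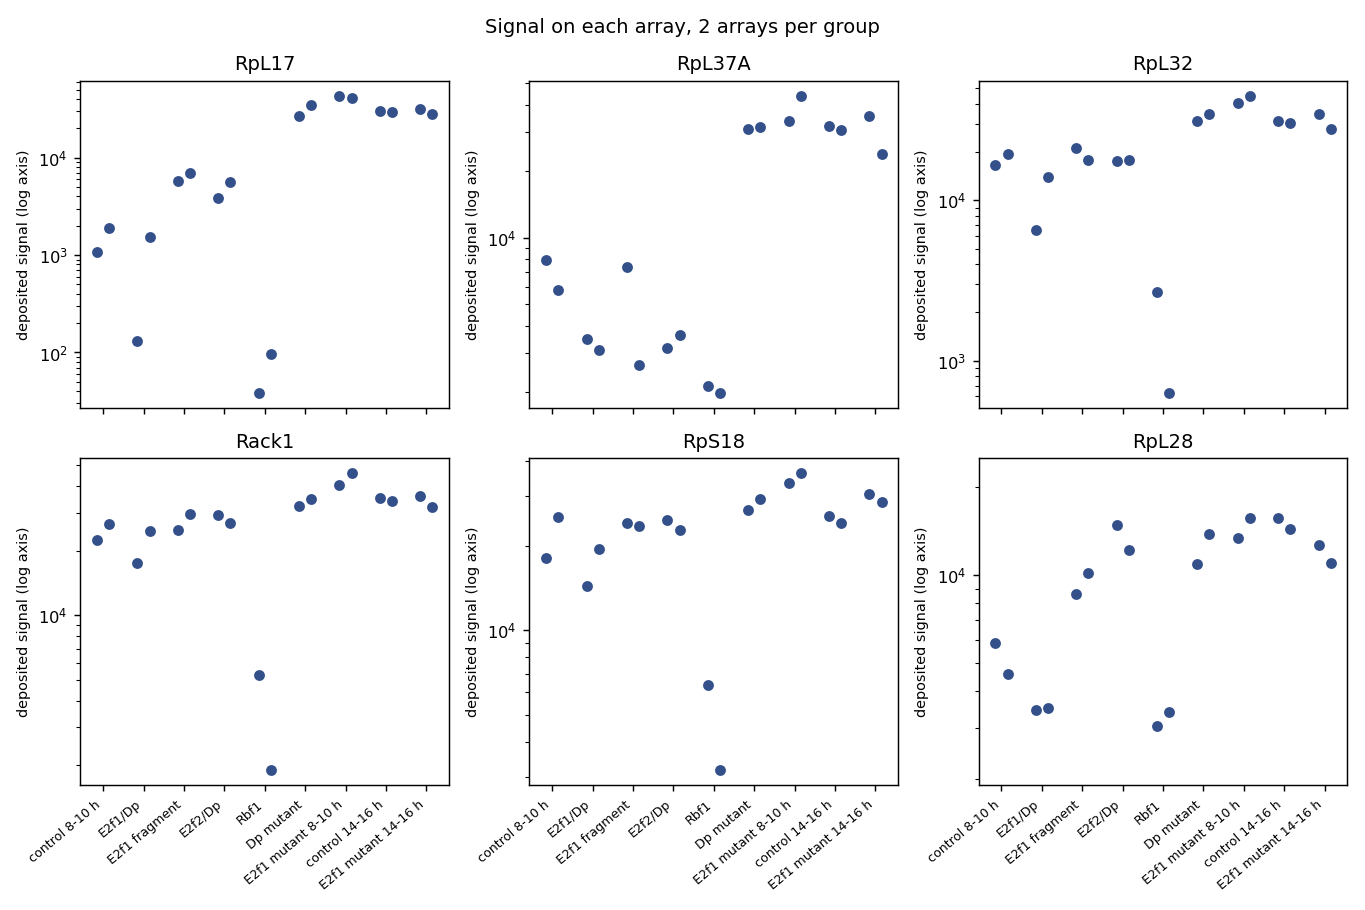
Deposited signal (log axis) of RpL17, RpL37A, RpL32, Rack1, RpS18 and RpL28 on each array, 2 points per group. RpL17 runs from 38.2 to 43026, and the Rbf1 arrays hold the lowest pair of values for all 6 genes.

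The Rbf1 arrays were also the dimmest at the top of the scale, and they differed from each other. As deposited, 28 of the 35 members were lower on the second Rbf1 array than on the first. Both Rbf1 arrays lay below both controls for 27 of 35 members as deposited (21.3% of all units) and for 22 of 35 after quantile normalization (20.7% of all units). Among the 105 other units with a median signal above 10000, 18 (17.1%) fell and 14 (13.3%) rose, beside 11 of the 25 brighter ribosomal protein units (44%). Of the 105 units, 60 have no gene name here and 3 have several, and 15 of the 18 that fell are among these 63. Whether some of the 63 are ribosomal protein genes was not tested, so the 105 may not all lie outside the group. The part of array brightness in the falls was not tested. Of the 5 tested tissue markers elav alone was called in Rbf1 embryos. It read 409.2 and 554.4, below both controls (limma adjusted p = 0.00866). GATAe (1.03), vas (0.37), repo (0.17) and grh (0.04) had positive log2 changes that did not pass (limma adjusted p = 0.254 to 0.973), and the part of any marker was not tested.

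The number of calls moved with the processing and with single arrays. It was 22 with deposited scaling and 21 with median centring, all falls. It was 7 without the second Rbf1 array, 17 without the first, and 7 without the first control array. A limma fit of these 4 arrays alone called 0 members and 3 units in all, with 16 members at an unadjusted p under 0.05. RpL17 was no longer called without the first Rbf1 array (limma adjusted p = 0.0707) or without a filter on dim probe sets (0.0526). On chromosome arm 2L 5 of 9 members fell, on 2R 2 of 8, on 3L 2 of 4, on 3R 2 of 10 and on X 2 of 3, where 0.689% to 1.53% of all units of an arm were called in either direction.

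With E2f1/Dp no ribosomal protein gene passed the threshold. Of 35 members 0 were called by limma, and 3 had an unadjusted p under 0.05 (RpL17, RpL37A and RpL28, all lower). So had 767 of all 8975 units. Over all units 0.0669% rose and 0.0223% fell. RpL17 read 132.5 and 1547 against 1066 and 1914, so that 1 array lay far below the control and the other between its arrays. Its log2 change was -1.68 ± 0.73 (limma adjusted p = 0.548), and without the second E2f1/Dp array it was -3.49 and called (limma adjusted p = 0.00239). Without the first it was 0.12 (limma adjusted p = 0.959), so its sign rested on 1 array. RpL37A read 3497 and 3096 against 7938 and 5829, with a log2 change of -0.98 ± 0.31 (limma adjusted p = 0.373).

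RpL28, a large subunit protein, was the 1 member that rose with E2f2/Dp and the 1 that rose with the E2f1 fragment. In E2f2/Dp embryos RpL28 read 14829 and 12249 against 5860 and 4599 in the control, 2.62 times higher (1.39 ± 0.17, limma adjusted p = 0.00134). The background was 0.0557% of units higher and 0.0223% lower. In E2f1 fragment embryos it read 8594 and 10152, 1.79 times higher (0.84 ± 0.17, limma adjusted p = 0.026), beside 0.1% of units higher and 0.691% lower. Both groups lay above the control arrays, and they share those controls. The rise with the fragment was lost under 6 of 14 alternatives, among them the removal of the second control array (limma adjusted p = 0.0686) and of either fragment array (0.0616 and 0.216). The rise with E2f2/Dp was lost under 1 of 14, the fit of its 4 arrays alone (limma adjusted p = 0.418).

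RpL17 had larger changes in these crosses that did not pass. It read 3888 and 5632 with E2f2/Dp (1.74 ± 0.73, limma adjusted p = 0.497) and 5823 and 6886 with the fragment (2.15 ± 0.73, limma adjusted p = 0.242). All 4 of these arrays were above both controls. RpS27A read 23235 and 24501 with the fragment and 19575 and 18853 with E2f2/Dp against 10582 and 12369, with log2 changes of 1.05 and 0.73 (limma adjusted p = 0.156 and 0.496). The median over members was 0.04 with E2f2/Dp and 0.02 with the fragment.

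Dp mutants and E2f1 mutants of 8 to 10 h had higher signal for the same 4 large subunit genes, RpL17, RpL37A, RpL28 and RpL39. In each comparison 4 of 35 members rose and 0 fell. Over all units 2.08% rose and 1.92% fell in Dp mutants, and 1.2% rose and 1.35% fell in E2f1 mutants. The comparisons share both control arrays. At an unadjusted p under 0.05 there were 14 members in Dp mutants and 10 in E2f1 mutants. The same counts over all 8975 units were 1764 and 1633. Without the first E2f1 mutant array 2 members were called in E2f1 mutants.

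RpL17 read 26445 and 34527 in Dp mutants and 43026 and 40804 in E2f1 mutants, where the control had 1066 and 1914. The log2 changes were 4.16 ± 0.73 (limma adjusted p = 0.00684) and 4.32 ± 0.73 (0.0052), or 17.9 and 20 times. Neither call held without the first control array (limma adjusted p = 0.0734 and 0.0634), and that in E2f1 mutants was also lost without their first array (0.0534). RpL37A read 30920 and 31617 in Dp mutants and 33723 and 43783 in E2f1 mutants against 7938 and 5829. The log2 change was 1.97 ± 0.31 in both comparisons (limma adjusted p = 0.0032 and 0.00272). All mutant arrays of both genes lay far above the control arrays.

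RpL28 read 10932 and 13809 in Dp mutants and 13399 and 15660 in E2f1 mutants against 5860 and 4599 (1.19 and 1.35, SE 0.17, limma adjusted p = 0.00166 and 0.000538). RpL39, a small protein of the exit tunnel, read 18908 and 20718 in Dp mutants and 19128 and 18317 in E2f1 mutants against 8802 and 7607. Its log2 changes were 1.14 and 0.98 with an SE of 0.16 (limma adjusted p = 0.00166 and 0.00423). The groups did not overlap for either gene. RpL39 missed the threshold in E2f1 mutants without their first array (limma adjusted p = 0.0518). RpLP1 was near the threshold in Dp mutants, with 34581 and 39527 against 13930 and 17189 (1.00 ± 0.28, limma adjusted p = 0.0556).

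All other members missed the threshold, and the scaling decided how they looked. The members' median change was 0.01 in Dp mutants and 0.07 in E2f1 mutants after quantile normalization, and 0.43 and 0.71 as deposited. With deposited scaling 10 members rose and 1 fell in E2f1 mutants, and with median centring 8 rose and 1 fell, against 4 and 0 after quantile normalization. By the 0.1% measure given above, the E2f1 mutant arrays of 8 to 10 h were the brightest of all. At the lower cut-off they stood at 15424 and 17184, below the first E2f1 mutant array of 14 to 16 h at 18814. The part of brightness was not tested. RpL32, RpS18 and Rack1 had normalized changes of 0.57, 0.03 and -0.06 in Dp mutants. Of the 5 tissue markers grh rose in Dp mutants (1.06 on the log2 scale, limma adjusted p = 0.0315). In 8 to 10 h E2f1 mutants 0 of the 5 were called by limma, with 2 at an unadjusted p under 0.05 (repo and elav). The part of the markers was not tested.

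**Figure D3:**
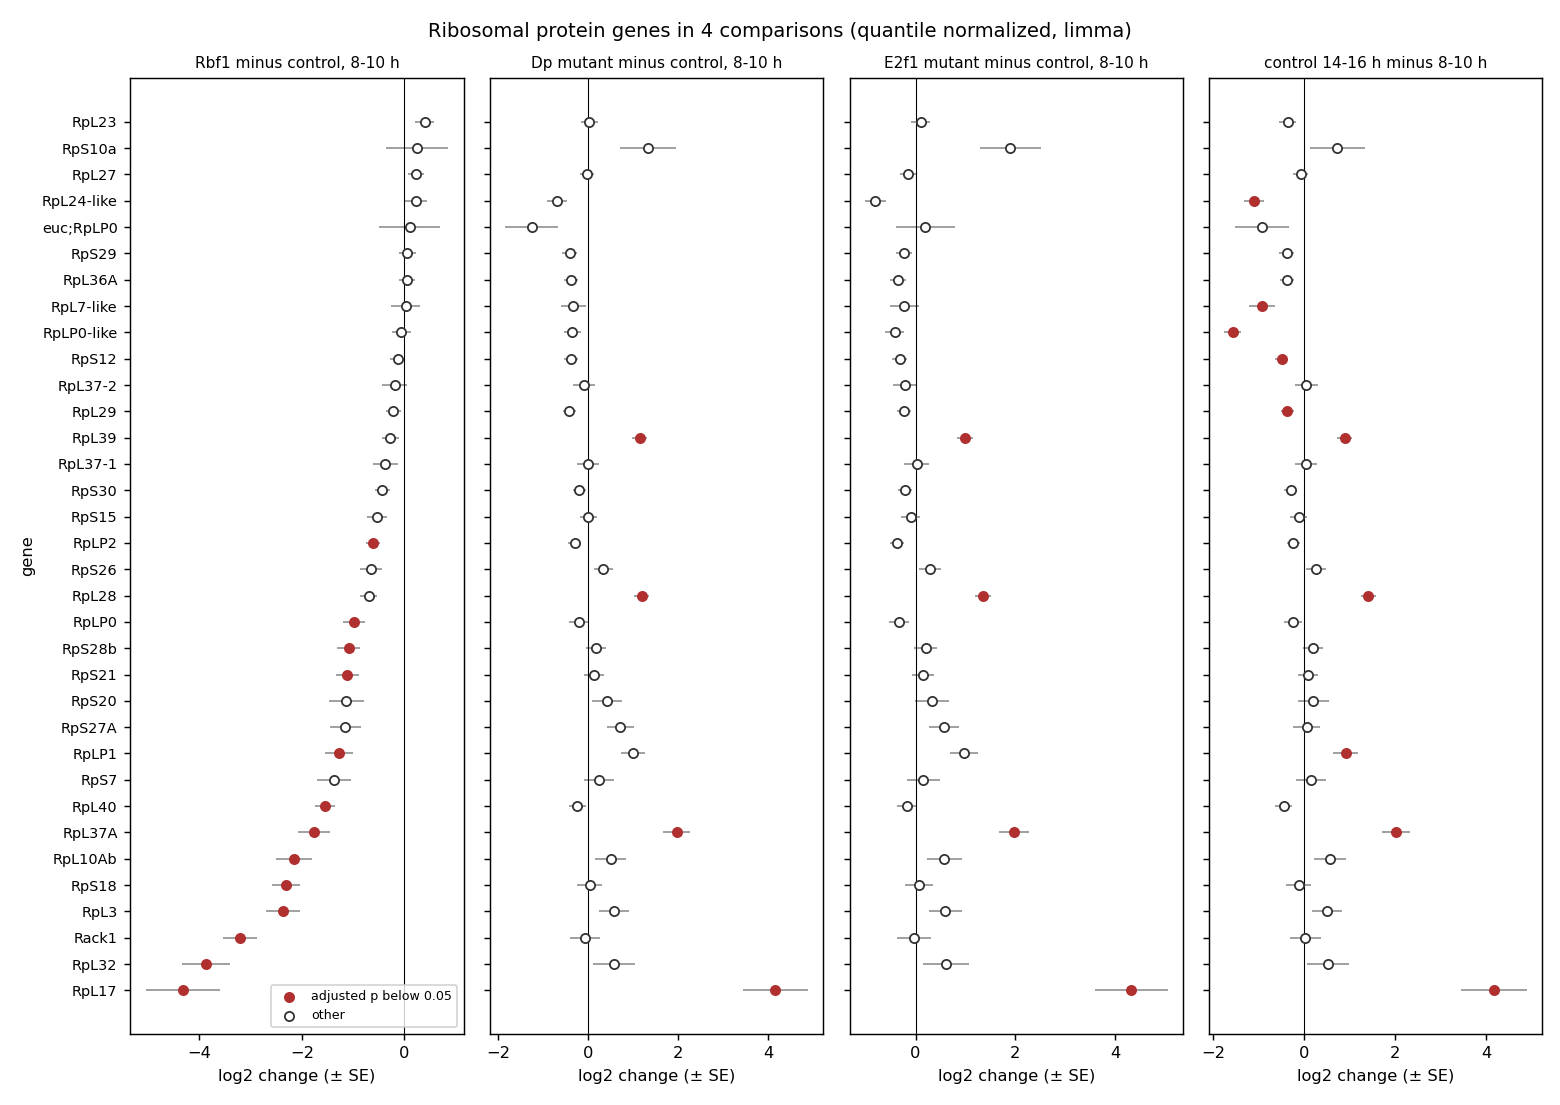
Log2 change with its SE of tested units in 4 comparisons (horizontal axis), with genes ordered by the Rbf1 comparison and filled points for limma adjusted p under 0.05. RpL17, RpL37A, RpL28 and RpL39 are filled on the right in both mutant panels and in the age panel, and 13 genes are filled on the left in the Rbf1 panel.

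The yw control cross at 14 to 16 h was compared with the same cross at 8 to 10 h. With age 5 of 35 members rose and 6 fell, while 17.6% of all units rose and 25.6% fell. The members' count was thus near the background for rises and below it for falls. The median over members was 0.02 on the log2 scale, beside -0.19 over all units. With deposited scaling 9 members rose and 4 fell, and with median centring 6 rose and 5 fell. Without the first 8 to 10 h control array, and without the first 14 to 16 h array, 7 members were called (4 higher and 3 lower). Of the tissue markers elav and grh fell with age (-2.26 and -1.23 on the log2 scale, limma adjusted p = 0.000104 and 0.0012) and GATAe rose (1.41, 0.00818), and their part was not tested.

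Of the 21 tested large subunit units 5 rose and 4 fell, and of the 14 small subunit units 0 rose and 2 fell. Over all units 17.6% rose and 25.6% fell. RpL17 read 29837 and 29667 at 14 to 16 h against 1066 and 1914 (4.17 ± 0.73, limma adjusted p = 0.000322). RpL37A read 31991 and 30759 against 7938 and 5829 (2.01 ± 0.31, limma adjusted p = 0.000101). These older control arrays stood within or near the range of the mutant arrays for both genes. RpL28 read 15719 and 14375 against 5860 and 4599 (1.40 ± 0.17, limma adjusted p = 1.27e-05). RpL39 read 15268 and 16763 against 8802 and 7607 (0.89 ± 0.16, limma adjusted p = 0.000438). RpLP1, of the stalk, read 34757 and 32296 against 13930 and 17189 (0.91 ± 0.28, limma adjusted p = 0.0151). Without the first control array of 8 to 10 h, or either array of 14 to 16 h, RpLP1 was not called (limma adjusted p = 0.102, 0.0705 and 0.058).

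All 3 tested genes with "-like" symbols of their own fell with age, beside 25.6% of all units. RpL22-like was too dim to be tested. In yeast the relatives of RpLP0-like, RpL24-like and RpL7-like (Mrt4, Rlp24 and Rlp7) help to assemble the large subunit in the nucleus and are not part of the finished ribosome. RpLP0-like read 865.3 and 835.6 at 14 to 16 h against 2877 and 2384, 2.97 times lower (-1.57 ± 0.19, limma adjusted p = 1.36e-05). RpL24-like read 1259 and 1260 against 3461 and 2352 (-1.11 ± 0.21, limma adjusted p = 0.000689). RpL7-like read 943.8 and 894.2 against 2129 and 1527 (-0.93 ± 0.29, limma adjusted p = 0.0157). The ages did not overlap for any of these 3, and the share of all units without such overlap was not counted. RpL7-like was not called without the first 8 to 10 h control array or without either 14 to 16 h array (limma adjusted p = 0.129, 0.0565 and 0.0703).

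E2f1 mutants of 14 to 16 h had low values of these genes too, with RpLP0-like at 636.7 and 830.1. In Rbf1 embryos RpLP0-like read 2644 and 2514, RpL24-like 3634 and 2951, and RpL7-like 1924 and 1898, within or above the control range. Their log2 changes there were -0.06, 0.22 and 0.03, and the median over the 10 tested members with a median signal of up to 10000 was -0.02. In 8 to 10 h mutants RpL24-like had log2 changes of -0.69 for Dp and -0.80 for E2f1 that did not pass (limma adjusted p = 0.0834 and 0.0581).

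RpS12 and RpL29 were also among the members that fell with age. RpS12 read 19088 and 21568 against 21961 and 22742 (-0.50 ± 0.15, limma adjusted p = 0.0138), and its call was lost without the first 8 to 10 h control array (0.0818), without the first 14 to 16 h array (0.0932), and with deposited scaling and median centring. RpL29 had a log2 change of -0.37 ± 0.14 (limma adjusted p = 0.0466) that was lost under 10 of 14 alternatives, including the removal of any of the 4 arrays (0.0591 to 0.173), and that was 0.05 with deposited scaling.

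**Figure D4:**
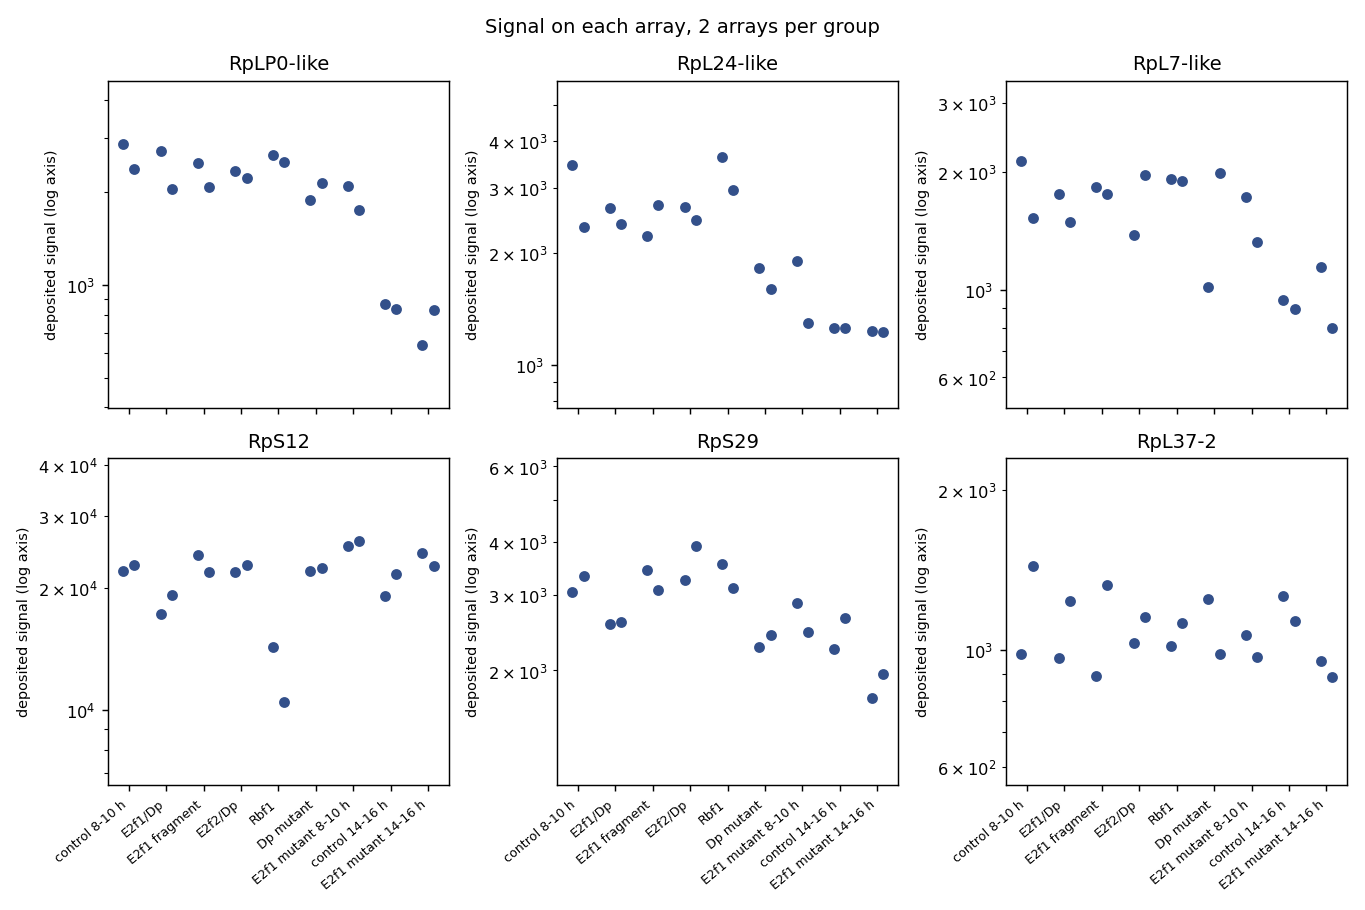
Deposited signal (log axis) of 6 members on each array, 2 points per group: RpLP0-like, RpL24-like, RpL7-like, RpS12, RpS29 and RpL37-2. RpLP0-like is lowest on the 4 arrays of 14 to 16 h, while RpL37-2 stays between 886.4 and 1435 on all 18.

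Several members belong to duplicated gene pairs, and how far the probes tell near-identical paralogs apart was not tested. In Rbf1 embryos 2 of the 6 tested units listed as duplicated pairs fell and 0 rose, beside 0.724% and 0.713% of all units. RpL37-1 ranged from 8271 on the second Rbf1 array to 30825, and RpL37-2 from 886.4 to 1435, and neither of these passed in any comparison. RpS10a, one of a pair of RpS10 genes, ranged from 33.3 to 406.9. It read 206.8 and 200.9 in Dp mutants and 406.9 and 221.5 in 8 to 10 h E2f1 mutants, against 102.4 and 57 in the control. In Dp mutants its log2 change was 1.33 ± 0.61 (limma adjusted p = 0.244). RpS29 ranged from 1724 to 3918 and passed in no comparison.

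In E2f1 mutants of 14 to 16 h no ribosomal protein gene passed the threshold against the control of the same age. Of 35 members 0 were called by limma, while 1.76% of all units rose and 3.84% fell. An unadjusted p under 0.05 was found for 2 members (RpL28 and RpS29) and for 1638 of all 8975 units. Of the tissue markers grh rose (0.92 on the log2 scale, limma adjusted p = 0.0462). The median change was 0.00 over members and 0.06 over all units. RpL17 read 31264 and 28357 against 29837 and 29667. RpL28 read 12721 and 10973 against 15719 and 14375 (-0.45 ± 0.17, limma adjusted p = 0.142).

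The E2f1 mutant effect was tested for a difference between the ages. It was lower at 14 to 16 h than at 8 to 10 h for 4 of 35 members and higher for 0, beside 1.83% and 0.925% of all units. The 4 were RpL17 (-4.32 ± 1.03, limma adjusted p = 0.0356), RpL37A (-2.15 ± 0.43, 0.0143), RpL28 (-1.80 ± 0.23, 0.000723) and RpL39 (-0.99 ± 0.23, 0.0297). All 4 had risen with age in the control cross, and this test uses those control arrays. Leaving out single arrays gave 1 to 4 calls. There were 1 or 2 calls when 1 of the 4 E2f1 mutant arrays or the 2 control arrays of 14 to 16 h was left out. RpL28 was called whichever of the 8 arrays was left out, and RpL17 only when that was the second 8 to 10 h control array.

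The 8 mutant and 14 to 16 h arrays were set beside the 10 driver arrays of 8 to 10 h, as a description chosen after the values were seen. As deposited, 14 of 35 members had all 8 arrays above all 10, against 1.11% of all units, and 1 had all 8 below, against 1.55%. After quantile normalization 6 were above (0.891% of units) and 2 below (1.67%). The 6 were RpL17, RpL37A, RpL39, RpLP1, RpL3 and RpL32, and the 2 were RpL24-like and RpS12. RpL17 ranged from 38.2 to 6886 on the 10 arrays and from 26445 to 43026 on the 8. RpL37A ranged from 1983 to 7938 and from 23885 to 43783. RpL39 ranged from 5520 to 8949 and from 15268 to 20718. The yw control cross lies on both sides of the split, and the 8 to 10 h mutants lie with the older embryos. The part of genotype or of age in the split was not tested. The brightness measure at the top of the scale divides the arrays in the same way. At the lower cut-off given above the arrays overlapped, with the first Dp mutant array at 15348 and the first E2f1 fragment array at 15710. The part of brightness was not tested.

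**Figure D5:**
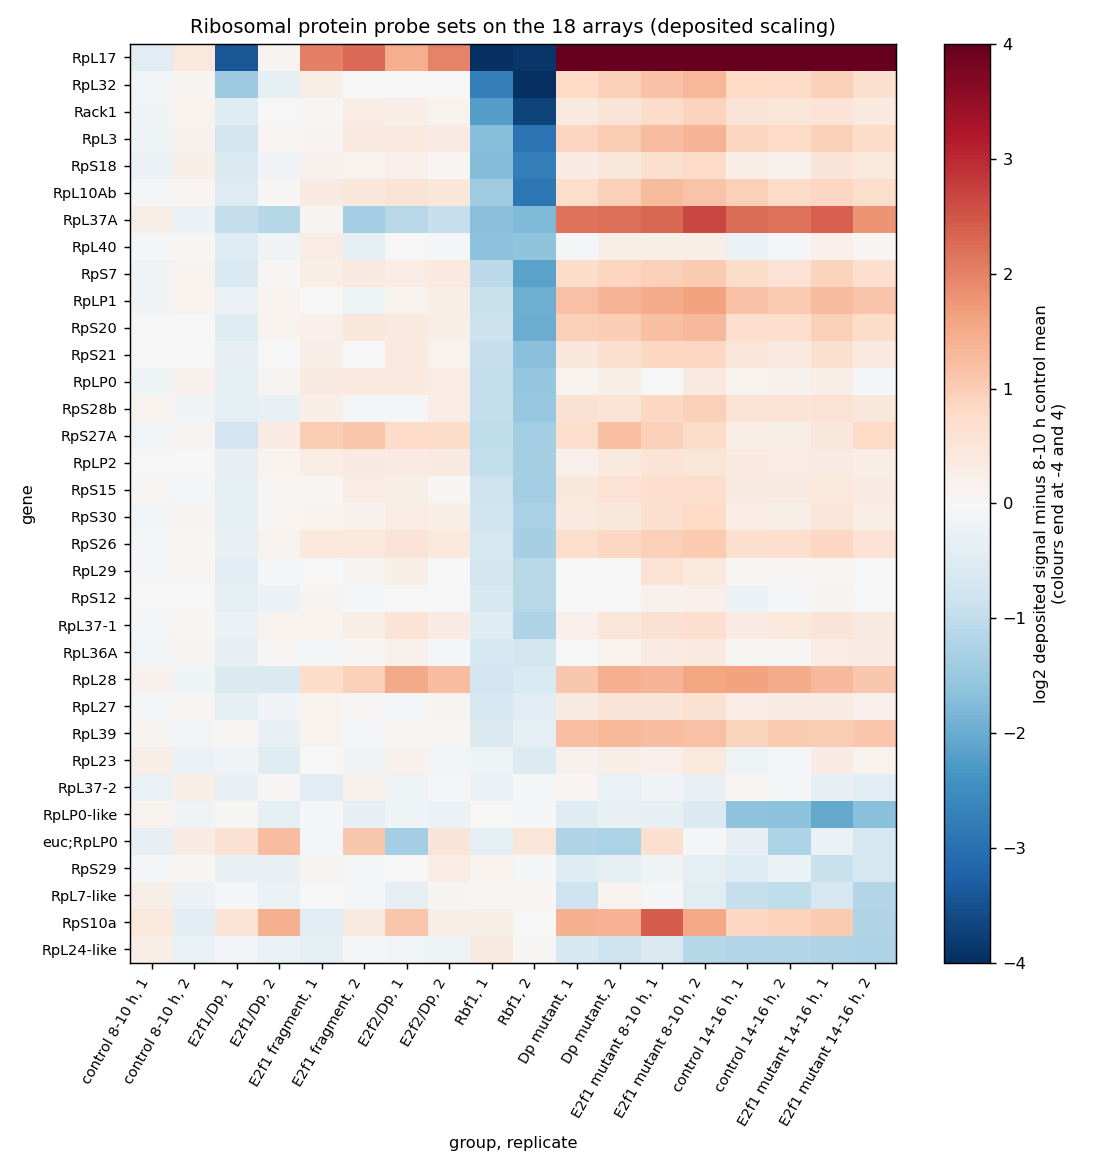
Log2 deposited signal of tested units on each array, minus the mean of the 8 to 10 h control arrays, from blue (lower) to red (higher), with colours ending at -4 and 4. The Rbf1 columns are blue for most genes, the 8 columns at the right are red for RpL17 and RpL37A, and the "-like" genes at the bottom turn blue at the right.

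Genes that make or regulate ribosomes were counted beside the members. Of 26 listed factors of ribosome assembly and ribosomal RNA synthesis 25 were tested, and with age 21 fell and 0 rose, beside 25.6% and 17.6% of all units (median -1.19 against -0.19 over all units). Log2 changes were -2.11 for Fib, the methyltransferase fibrillarin (limma adjusted p = 8.41e-06), -1.92 for NHP2, a protein of box H/ACA particles (2.15e-06), and -1.63 for Nop10, of the same particles (6.58e-06). In Rbf1 embryos 0 of the 25 were called by limma, with 2 at an unadjusted p under 0.05 (eIF6 and nclb), and the median was -0.04. In Dp mutants 5 fell, beside 1.92% of all units, led by Nop60B, the pseudouridine synthase of box H/ACA particles (-3.17 ± 0.30, limma adjusted p = 0.000117), and Nop10 (-1.07 ± 0.18, 0.00548). In E2f1 mutants 1 fell at 8 to 10 h (Nop10, -1.04), beside 1.35% of all units, and 3 at 14 to 16 h (Nopp140, Nnp-1 and mbm), beside 3.84%.

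Of 12 listed regulators of ribosomal protein genes or of growth 9 were tested. With age REPTOR rose, and Dref and M1BP, which bind promoters of many housekeeping genes, fell (-1.13 and -1.04 on the log2 scale, limma adjusted p = 0.00339 and 0.000715). Of 7 elongation factor genes 4 were tested, and with age eEF1delta, eEF1gamma and eEF5 fell, with log2 changes of -1.03, -0.92 and -0.51. Over all units 17.6% rose and 25.6% fell with age. In Rbf1 embryos 0 regulators were called by limma, with 2 at an unadjusted p under 0.05 (S6k and Trf2, both with positive changes). Of the 64 mitochondrial ribosomal protein genes, all tested, 16 fell with age, a share near the 25.6% of all units. In Dp mutants 4 fell (1.92% of all units), in E2f1 mutants of 8 to 10 h 1 fell (1.35%), and in those of 14 to 16 h 5 rose (1.76%). In Rbf1 embryos 0 were called by limma. There 3 had an unadjusted p under 0.05 and their median was 0.01.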

How the data were processed

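Signal of 13966 probe sets on 18 Affymetrix arrays was taken from the deposited table, whose values are linear intensity that the authors had scaled (trimmed means of 495.5 to 497.8, leaving out 2% at each end). The software that made probe-set values is not given in the sources used here, and detection calls were not used. Genes were named from the platform annotation updated to RefSeq.

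Arrays were quantile normalized, since their medians differed by 0.244 on the log2 scale. Values under the 20th percentile (47.5, or 5.57 as log2) were set to it, the dimmest 30% by mean were dropped, and the probe set with the highest mean stood for each gene. This left 8975 units, of which 7927 are named genes and 1048 have no gene or several. A limma 3.58.1 fit (R 4.3.3, eBayes with trend) of 9 group means had 9 residual and 6.16 prior degrees of freedom. Tests were two-sided, with Benjamini-Hochberg adjustment over all units of a comparison and a threshold of 0.05. The fit was tested on simulated data. Errors of log2 changes are SE of this fit, which draw on the spread in all 9 groups. They can be smaller than the scatter of the arrays compared. For arrays their number limits the precision, with 2 per group. The 7 comparisons with the 8 to 10 h control share its arrays.

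Members, gene lists and tests were chosen with earlier results of these data known. Named were RpL17, RpL28, RpL32, RpS18 and Rack1, up to 6 members per direction and comparison with the largest called change and no overlap of arrays, the stalk, ubiquitin fusion, duplicated and "-like" genes, and up to 3 genes of other lists with the smallest p. Other members, Nop10 with age, nclb, S6k and Trf2 were named after their values were seen. Alternatives changed the scaling, floor, filter, probe-set choice, trend, block and arrays. Values of 1 member are not reported here, but it is in the counts, among them that of members that fell with age. A planned description of promoter motifs was not run, and no sequences or coordinates were used.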

Additional observations from a re-analysis of the deposited data

Results flagged for a closer look

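The E2f1 mutant effect differed between the ages for 4 ribosomal protein genes by a test of the difference itself (limma, adjusted over all units). The effect at 14 to 16 h minus that at 8 to 10 h was -4.32 on the log2 scale for RpL17, -2.15 for RpL37A, -1.8 for RpL28 and -0.99 for RpL39. Over all units 1.83% were lower and 0.925% higher by this test. Of these 4 genes only RpL28 kept its call under every alternative. In each case the 8 to 10 h mutants stood above their control, while the 14 to 16 h control itself had risen to the level of the mutants. Mutants were sorted by machine at 8 to 10 h and by hand at 14 to 16 h. The 8 to 10 h E2f1 mutant arrays were the brightest at the top of the scale, but not at the lower cut-off. The part of sorting or of brightness in the difference was not tested.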

How the results depend on the processing

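Each count of called members and each median was recomputed under the alternatives. With deposited scaling and median centring the members' median became -0.213 and -0.284 with E2f1/Dp, 0.429 and 0.342 in Dp mutants, 0.706 and 0.62 in E2f1 mutants of 8 to 10 h (11 and 9 calls), 0.347 and 0.266 with age, -0.612 and -0.401 for the age difference of the E2f1 effect, and -1.047 and -1.006 in Rbf1 embryos (22 and 21 calls). With E2f2/Dp it became 0.148 with deposited scaling. With median centring it became 0.118 for the fragment (0 calls) and 0.144 in E2f1 mutants of 14 to 16 h. RpL29 turned with age to 0.051 with deposited scaling. Without a filter on dim probe sets Rbf1 embryos had 8 calls and a median of -0.405, and the age difference 2 calls. Without a trend in the variance there were 8 calls in Rbf1 embryos, 0 for the fragment and 1 for the age difference. Fits of the compared groups alone gave 0 calls with E2f2/Dp, 0 for the fragment, 0 in Rbf1 embryos (median -0.457) and 2 in Dp mutants. Where limma made 0 calls, 3 members had an unadjusted p under 0.05 for the fragment in each of these settings, 5 with E2f2/Dp and 16 in Rbf1 embryos. The cause of these moves was not tested.

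Leaving out each array in turn gave 0 to 1 calls with E2f1/Dp (medians -0.068 to 0.061), 0 to 1 for the fragment (the 1 was RpL28, higher, without the first control array, and another member, lower, without the first fragment array), 7 to 17 in Rbf1 embryos (medians -0.807 to -0.331), 2 to 5 in E2f1 mutants of 8 to 10 h, 7 to 11 with age (medians -0.079 to 0) and 1 to 4 for the age difference. In these fits a lone array is taken to vary like the other groups. Leaving out both Rbf1 arrays, added after seeing the data, gave 14 calls with age and 5 in each 8 to 10 h mutant.

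The replicate numbers did not pair the samples: over 36 pairs of groups the correlation of same-numbered deviations ran from -0.161 to 0.15 (median 0.008), with 4 above 0.1. With the number as a replicate block the counts were 0 with E2f1/Dp, 1 with E2f2/Dp, 1 for the fragment, 13 in Rbf1 embryos, 4 in Dp mutants, 5 and 0 in E2f1 mutants of 8 to 10 h and 14 to 16 h, 10 with age and 4 for the age difference. With 2 arrays per group and signals that share the top of each array's scale, changes under the scaling differences above could not be resolved.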
